A study of Mus musculus with 24 samples.

Results

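The nucleus accumbens (NAc), a part of the ventral striatum that weighs reward, was compared between 6 female mice raised with early-life stress and 6 female mice raised without it. Every animal was C57BL/6 by its label (C57BL/6J in the methods of the study) and 50 days old, with no transgene, drug or other manipulation described for any group. Stressed pups underwent repeated maternal separation together with unpredictable stress of the dam (MSUS), and control (Con) litters were left undisturbed. These 12 libraries, each from the bilateral NAc of 1 animal, were selected by group and sex out of 24 in the series, where the other 12 are 6 Con and 6 MSUS males prepared in the same way. Nothing in the labels says which animals were littermates, so siblings may be counted as separate animals. The stage of the estrous cycle is not used here, because the labels assign stages to males and leave some females without one. By the methods of the study, high and low estrogenic females were balanced within each group, and its female model held a cycle term.

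Most NAc neurons are medium spiny neurons, inhibitory projection cells that carry either the D1 or the D2 dopamine receptor, mixed with interneurons, astrocytes, oligodendrocytes and microglia. RNA was made into libraries after removal of ribosomal RNA and without selection for polyadenylated tails, so that unspliced, nuclear and non-coding RNA was sequenced along with messenger RNA. Levels are given as counts scaled to a common library size (CPM) from read pairs on the sense strand of each gene, and are compared between animals, not between genes.

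Sense counts summed to between 50866371 and 59956154 per Con female and between 47134890 and 55276234 per MSUS female. Xist, the RNA that coats the silent X chromosome, lay between 1089 and 1557 CPM in the 12 females and at or below 0.391 CPM in the 12 males, and the Y-linked Ddx3y was at 0 in each female. Markers shared by medium spiny neurons were abundant in every library, with summed levels of 5326.5 to 11388.5 CPM in Con and 8174 to 10307 CPM in MSUS females. Con female 3 stood apart, with the lowest of those sums and the highest sum of cortical excitatory markers, 2375 CPM against 354 to 1597 CPM in the other 11 females. Leaving out that library moved several of the counts below, and those values are given beside them. In punches of tissue, fewer cells of a type and less RNA per cell cannot be told apart.

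The libraries of the MSUS and Con females differed in how much of their sequence fell on annotated genes. The share of uniquely mapped pairs that matched no gene on the sense strand (the unassigned share) was 31.0% at its lowest, 32.7% at the median and 34.8% at its highest in Con females, against 36.3%, 39.6% and 43.9% in MSUS females. The groups did not overlap, and the means differed by 7.25 percentage points (exact two-sided permutation test, p = 0.00216, the smallest p that 6 against 6 allows, and 0.00433 after Benjamini-Hochberg adjustment over 4 measures). The gap was 9.15 points among the libraries numbered 1 to 12 in the labels and 5.35 points among those numbered 13 to 24, each with 3 against 3 animals and no overlap (exact permutation p = 0.1, the smallest that 3 against 3 allows). Males did not show the gap, with means of 38.0% in Con and 37.2% in MSUS (exact permutation p = 0.684).

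The other library measures moved less. Pairs matching more than 1 gene made up 0.912% of unique pairs on average in Con and 0.813% in MSUS females (exact permutation, adjusted p = 0.00433), but relative to the counts assigned to genes the difference was -0.00088 percentage points (exact permutation p = 0.905). The antisense share was 5.00% ± 0.05 (SD, n = 6) in Con and 5.13% ± 0.07 in MSUS females (exact permutation, adjusted p = 0.00577). The mitochondrial share was 2.73% ± 0.41 in Con and 3.10% ± 0.23 in MSUS females, a difference that did not pass the threshold of 0.05 used for these 4 measures (exact permutation, adjusted p = 0.0584).

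**Figure D1:**
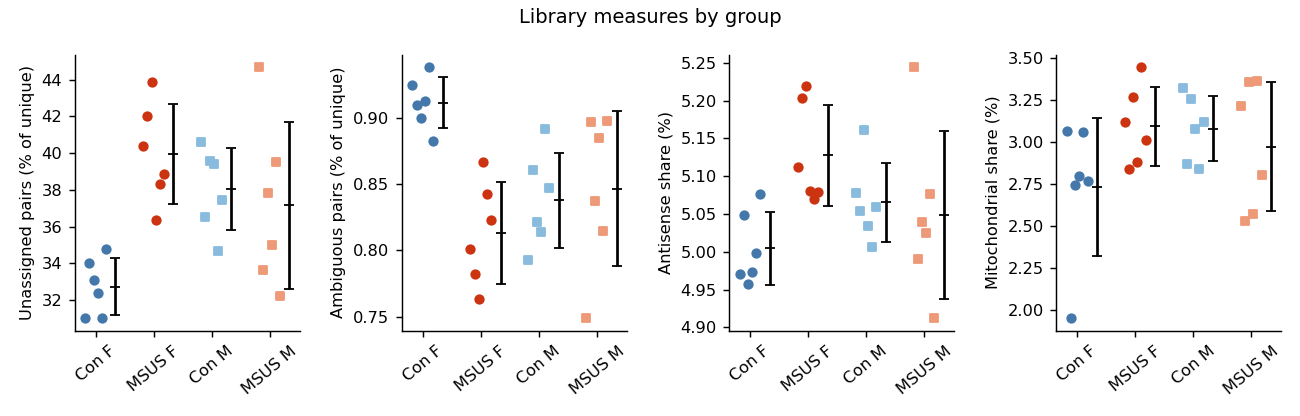
Each point is 1 library, in 4 groups of 6 (F, female; M, male), and the bar beside each group is the mean with its SD. From left to right the axes give the unassigned and ambiguous pairs as percent of uniquely mapped pairs, the antisense share and the mitochondrial share, none starting at 0. In the first panel Con females lie between 31.0% and 34.8% and MSUS females between 36.3% and 43.9%.

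Across the genome, MSUS females differed from Con females at many genes, nearly all by small steps. Of 20571 genes tested, 5156 passed an adjusted p of 0.10 in edgeR's quasi-likelihood test, which is 25.1% of genes. Of these, 2698 were higher in MSUS (13.1% of genes tested) and 2458 lower (11.9%). The change was smaller than 1.5-fold for 4160 of the called genes and reached 2-fold for 149, of which 99 were higher. The 2 groups did not overlap at 1500 genes, or 7.29% of those tested. Leaving out 1 library at a time gave between 3102 calls, without MSUS female 3, and 5737, without MSUS female 1. The count was 3358 without MSUS female 2, and 2838 genes were called in each of the 12 such fits. Within libraries 1 to 12 alone 23 genes passed, and within libraries 13 to 24 none did by edgeR's test (3394 at an unadjusted p under 0.05), while a term for the 2 library sets left 5170.

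No gene passed when the unassigned share of each library was a term in the model. With that term, 1174 of the 20571 genes had an unadjusted p under 0.05 (5.71%) and the smallest adjusted p of edgeR's test was 0.76. In a fit of all 24 animals with the same term, a setting chosen after the data were seen, the female comparison again gave 0 calls and 667 genes at an unadjusted p under 0.05. Since the share separates the female groups completely, its part in the difference and that of MSUS cannot be told apart in females. A male slope, where given below, is the slope of the same gene or list on the unassigned share among the 12 males, which do not enter the female comparison. That slope, fitted with MSUS or Con as a further term, was called for 6527 of 20691 genes (31.5%) and is given as the log2 change for the 7.25 points that part the females. The level of cortical excitatory markers also ran with the share among males. The median male slope of the 12 markers was -1.51, with 5 called below 0 and none above. A male slope is therefore not a measure of the share apart from cortical tissue, and the part of each was not tested.

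Genes that encode the machinery of oxidative phosphorylation fell together. Oxidative phosphorylation makes most of a neuron's ATP, and its complexes are built from many nuclear-encoded subunits and a few encoded by the mitochondrion itself. Of 80 nuclear-encoded subunits tested, 66 were lower in MSUS females and none higher, where 11.9% of all genes were lower, and the median log2 fold change was -0.16 against -0.00 over all genes. The groups did not overlap for 45 of the 80, beside 7.29% of all genes tested. Between 55 (without MSUS female 2) and 69 subunits were called lower with 1 library left out, 53 genes of the list were called with the level of cortical markers as a term, and 55 with offsets for gene length and GC content. None was called with the unassigned share as a term, where the median was -0.10, and the median male slope for the female gap was -0.20.

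Cox6a1, a subunit of complex IV (chromosome 5, 115345642 to 115348981, minus strand of GRCm38), was among the 5 protein-coding genes with the lowest p. It ranged from 125 CPM through a median of 129 to 144 in Con females and from 96.7 through 104 to 109.8 in MSUS females. The lowest Con female was above the highest MSUS female, and the log2 fold change was -0.34 ± 0.04 (SE; adjusted p = 0.00122, edgeR). In males the MSUS difference was 0.07 ± 0.12 and the slope for the female gap was -0.38 ± 0.07, and with the share as a term the female change was -0.26 ± 0.09 (adjusted p = 0.76, edgeR).

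Cox8a, another complex IV subunit, ranged from 141 to 168 CPM in Con (median 151) and from 119 to 133 in MSUS females (median 125). Its groups did not overlap either, and its log2 change of -0.28 ± 0.05 (adjusted p = 0.00351, edgeR) stood beside a male slope of -0.34 ± 0.06. Among subunits of complex I, which takes electrons from NADH, Ndufa5 had medians of 52.1 CPM in Con and 45.5 in MSUS females and Ndufa11 had medians of 44.2 and 38.1. Both were fully separated between groups, with log2 changes of -0.19 ± 0.03 for Ndufa5 and -0.20 ± 0.04 for Ndufa11.

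The promoters of these subunits are shown because NRF1, a transcription factor named for nuclear respiratory genes, is known to bind many of them. In the 250 bases before the RefSeq start of transcription, the NRF1 core motif, searched on both strands, was found for 12 of 63 subunits with a promoter in the table. It was found for 888 of 11602 protein-coding genes tested (7.65%), for 8.55% of those called lower and for 8.17% of those called higher. The 3 called subunits with the motif and the lowest p in the female comparison follow, 5′ to 3′ from RefSeq on GRCm38.p6, with the matching letters in capitals.
Cox6a1, chr5:115348959-115349208, minus strand: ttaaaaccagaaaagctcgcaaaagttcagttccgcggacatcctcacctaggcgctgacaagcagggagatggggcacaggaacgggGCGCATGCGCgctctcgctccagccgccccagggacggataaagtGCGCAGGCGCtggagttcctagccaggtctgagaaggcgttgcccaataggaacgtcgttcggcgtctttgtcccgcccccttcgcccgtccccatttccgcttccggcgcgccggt
Ndufa5, chr6:24527691-24527940, minus strand: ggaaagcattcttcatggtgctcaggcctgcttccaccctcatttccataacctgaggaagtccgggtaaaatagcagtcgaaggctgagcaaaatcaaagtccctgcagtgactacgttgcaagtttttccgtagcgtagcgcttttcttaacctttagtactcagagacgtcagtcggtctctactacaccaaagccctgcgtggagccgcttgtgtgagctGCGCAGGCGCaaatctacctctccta
Ndufa11, chr17:56717512-56717761, plus strand: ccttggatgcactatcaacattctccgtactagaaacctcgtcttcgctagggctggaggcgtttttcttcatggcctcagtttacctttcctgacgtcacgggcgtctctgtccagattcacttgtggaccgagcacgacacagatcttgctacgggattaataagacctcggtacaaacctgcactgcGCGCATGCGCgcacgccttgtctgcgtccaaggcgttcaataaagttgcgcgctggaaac
Cox6a1 holds 2 matches and the others 1 each. A match of letters is a description and does not show that the factor was bound.

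The subunits encoded by the mitochondrion did not follow. Of 12 mitochondrial genes tested none was called by edgeR's test, all 12 fold changes were above 0, and the median was 0.16, which became -0.16 with offsets for length and GC content. Their sum was 19418 to 31756 CPM in Con and 27150.3 to 33588 CPM in MSUS females. The low end was Con female 2, and the groups overlapped.

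Genes of other housekeeping groups were called lower as well, in shares that differed from group to group. In glycolysis, the cytosolic breakdown of glucose, 12 of 16 gene entries were lower and none higher (median -0.19). Aldoa, which splits fructose bisphosphate, ranged from 963 through a median of 1015 to 1131 CPM in Con and from 820.4 through 872 to 909 in MSUS females, with no overlap. Its log2 change was -0.26 ± 0.05 (adjusted p = 0.00675, edgeR) beside a male slope of -0.32 ± 0.06. Hk1, the hexokinase that commits glucose to the pathway, fell by 0.32 ± 0.09 on the log2 scale, with a male slope of -0.44 ± 0.08. Of 49 tubulin and kinesin genes, which build and walk along microtubules, 19 were lower and none higher (12 lower without Con female 2, and 2 called with the cortical marker level as a term). Of 38 proteasome genes 18 were lower, among them the catalytic subunit Psmb5 (-0.25 ± 0.05). Of 80 cytosolic ribosomal protein genes 11 were lower and 1 higher, near the 11.9% lower among all genes. That count was 7 lower without Con female 1 and 40 lower without Con female 3. With the cortical marker level as a term, fitted over all 12 females, 66 genes were called. The cause of these shifts was not tested. Rpl22, a protein of the large ribosomal subunit, changed by -0.19 ± 0.05 without overlap.

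**Figure D2:**
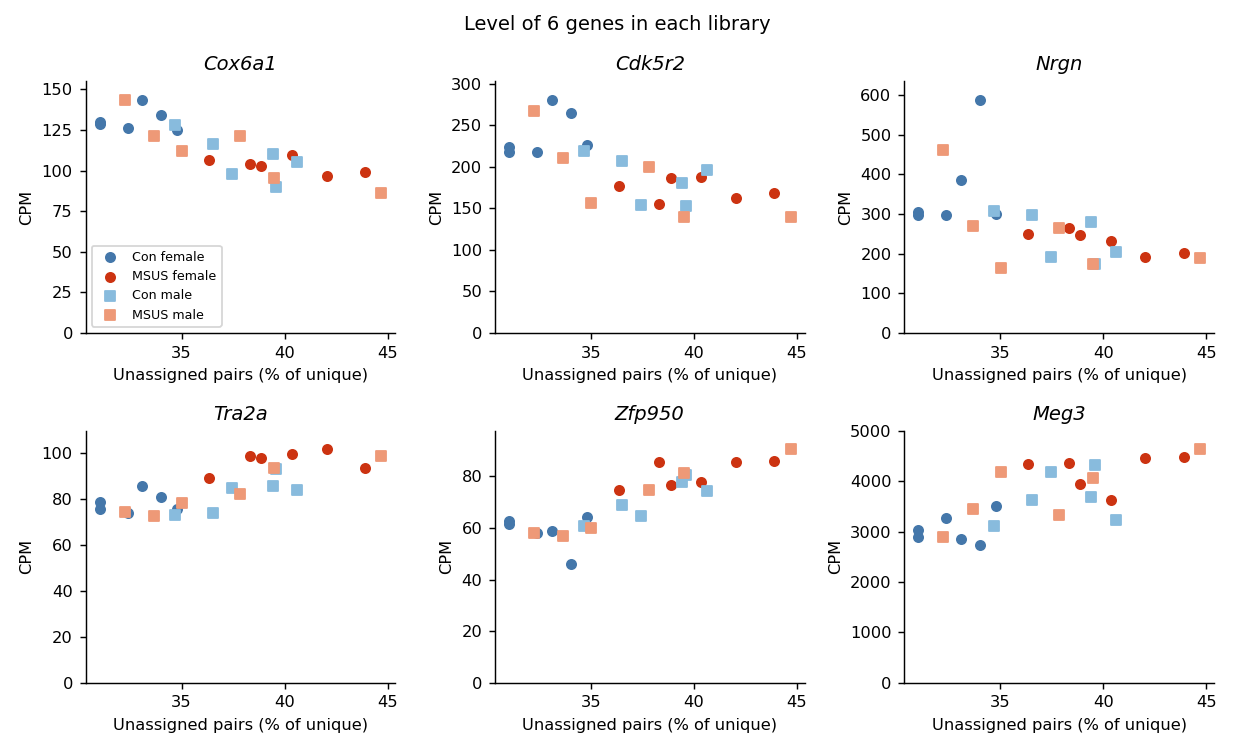
CPM of 6 genes (y axis, from 0) against the unassigned share of the library (x axis, percent of uniquely mapped pairs). Each point is 1 library, circles for females and squares for males. Cox6a1, Cdk5r2 and Nrgn are lower and Tra2a, Zfp950 and Meg3 higher in MSUS females (36.3% to 43.9% unassigned) than in Con females (31.0% to 34.8%), with Con males between 34.7% and 40.6% and MSUS males between 32.2% and 44.7%.

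Genes of the presynaptic terminal fell. These proteins load transmitter into vesicles, dock the vesicles and fuse them on arrival of calcium. Of 36 genes for synaptic vesicles and release, 21 were lower and 1 higher in MSUS females, where 11.9% of all genes were lower. The median log2 change was -0.23 and the median male slope -0.33. The count of lower genes went from 10 (without MSUS female 3) to 24 (without MSUS female 1), and 8 genes were called with the cortical marker level as a term. Stx1a, the syntaxin of the fusion complex, had the largest fold change of the list. It lay between 36.5 and 115 CPM in Con (median 57.9) against 25.7 to 58.1 in MSUS females (median 31.6). The ranges overlapped, and the log2 change of -0.97 ± 0.31 (adjusted p = 0.0564, edgeR) failed the threshold in 6 of 12 fits that left out 1 library, namely Con female 2 or 3 or MSUS female 2, 3, 4 or 5. With each of these left out the adjusted p was at most 0.12 (edgeR).

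On the postsynaptic side, 4 of 22 postsynaptic density genes were lower and none higher, beside 11.9% of all genes lower. The count of lower genes was 2 without Con female 2, 6 without Con female 3 and 7 without MSUS female 1. Nrgn, which holds calmodulin at the postsynapse and is abundant in forebrain principal neurons, lay between 297 and 588 CPM in Con (median 303) against 193 to 264 in MSUS females (median 239). There was no overlap, and the log2 change was -0.65 ± 0.17 (adjusted p = 0.0283, edgeR), with a male slope of -0.61 ± 0.22. Cdk5r2, an activator of the neuronal kinase Cdk5, lay between 217 and 281 CPM in Con and between 156 and 187 in MSUS females. It also separated fully, at -0.46 ± 0.07 (adjusted p = 0.00309, edgeR), and its slope in males was -0.45 ± 0.13.

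Markers of cortical excitatory neurons, cells that also express many of these synaptic genes, lay mostly below 0. All but 1 of the 12 markers had a fold change below 0, with a median of -1.78, and 3 were called lower, beside 11.9% of all genes. Their summed level was 512 to 2375 CPM in Con and 354 to 1180 CPM in MSUS females, overlapping. Fezf2, a cortical projection neuron factor, had a log2 change of -1.82 ± 0.69 (adjusted p = 0.0931, edgeR) and Emx1, a factor of the dorsal forebrain, -1.82 ± 0.69 (adjusted p = 0.0944, edgeR). None of the 12 was called without Con female 3, while 9 were lower without MSUS female 1. Of the 12 fits that left out 1 library, Fezf2 failed the threshold in 8 and Emx1 in 9. Both failed it without Con female 1, 2 or 3 or MSUS female 2, 3, 4, 5 or 6, and Emx1 also without Con female 6. The part of cortical tissue in the changes of synaptic genes, or in their male slopes, was not tested.

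Medium spiny neuron markers did not pass. None of 8 D1, 5 D2 or 15 shared markers was called by edgeR's test, with medians of 0.07, 0.02 and 0.02 on the log2 scale. The median male slopes of these lists were larger, at 0.30, 0.33 and 0.26. Without Con female 3 the female medians were 0.00, -0.14 and -0.05, and 1 shared marker was called lower. Drd1, the D1 dopamine receptor, lay between 128 and 335 CPM in Con (median 282) against 241 to 318 in MSUS females (median 291). Its log2 difference was 0.13 ± 0.19 (adjusted p = 0.653, edgeR), and the lowest value was Con female 3. The 8 opioid peptide and receptor genes and the 6 cholinergic interneuron markers were not called either. Of 10 interneuron markers, Sst (-0.39 ± 0.13) and the calcium buffer Pvalb (-0.85 ± 0.29) were lower and Lhx6, a transcription factor of forebrain interneurons, was higher (0.25 ± 0.09). These counts are to be read beside the 13.1% higher and 11.9% lower of all genes. Of the 12 fits that left out 1 library, Sst and Lhx6 failed the threshold in 8 each and Pvalb in 7. None of the 10 was called without Con female 3.

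Markers of mature oligodendrocytes fell, while microglial markers did not pass. Oligodendrocytes wrap axons in myelin. Of 14 markers of the mature cell 7 were lower and none higher, all 14 fold changes were below 0, and the median was -0.23 beside a male slope of -0.10. Mbp, a main protein of compact myelin, lay between 1695 and 2494 CPM in Con (median 2088) against 1500.4 to 1842 in MSUS females (median 1709.7). The ranges overlapped while each MSUS female was below the Con median, and the log2 change was -0.30 ± 0.08 (adjusted p = 0.0231, edgeR). Mag, an adhesion protein of the inner myelin layer, changed by -0.28 ± 0.06 (adjusted p = 0.0128, edgeR). The number of markers lower ranged from 3, without MSUS female 3, to 11, without Con female 6, and was 4 without Con female 3. With the cortical marker level as a term 1 was called and the median was -0.11. Of 12 astrocyte markers 4 were lower (0 without MSUS female 2), of 10 endothelial markers 1 and of 10 oligodendrocyte precursor markers 1. None of 12 microglial markers was called by edgeR's test. Among all genes 11.9% were lower, which the endothelial and precursor counts do not exceed. The adult brain makes its own cholesterol, largely for membranes and myelin. Of 18 genes for its synthesis and uptake 8 were lower and all 18 fold changes were below 0, with 4 lower without MSUS female 3, 5 without Con female 3 and 13 without MSUS female 1. With the cortical marker level as a term 3 were called.

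**Figure D3:**
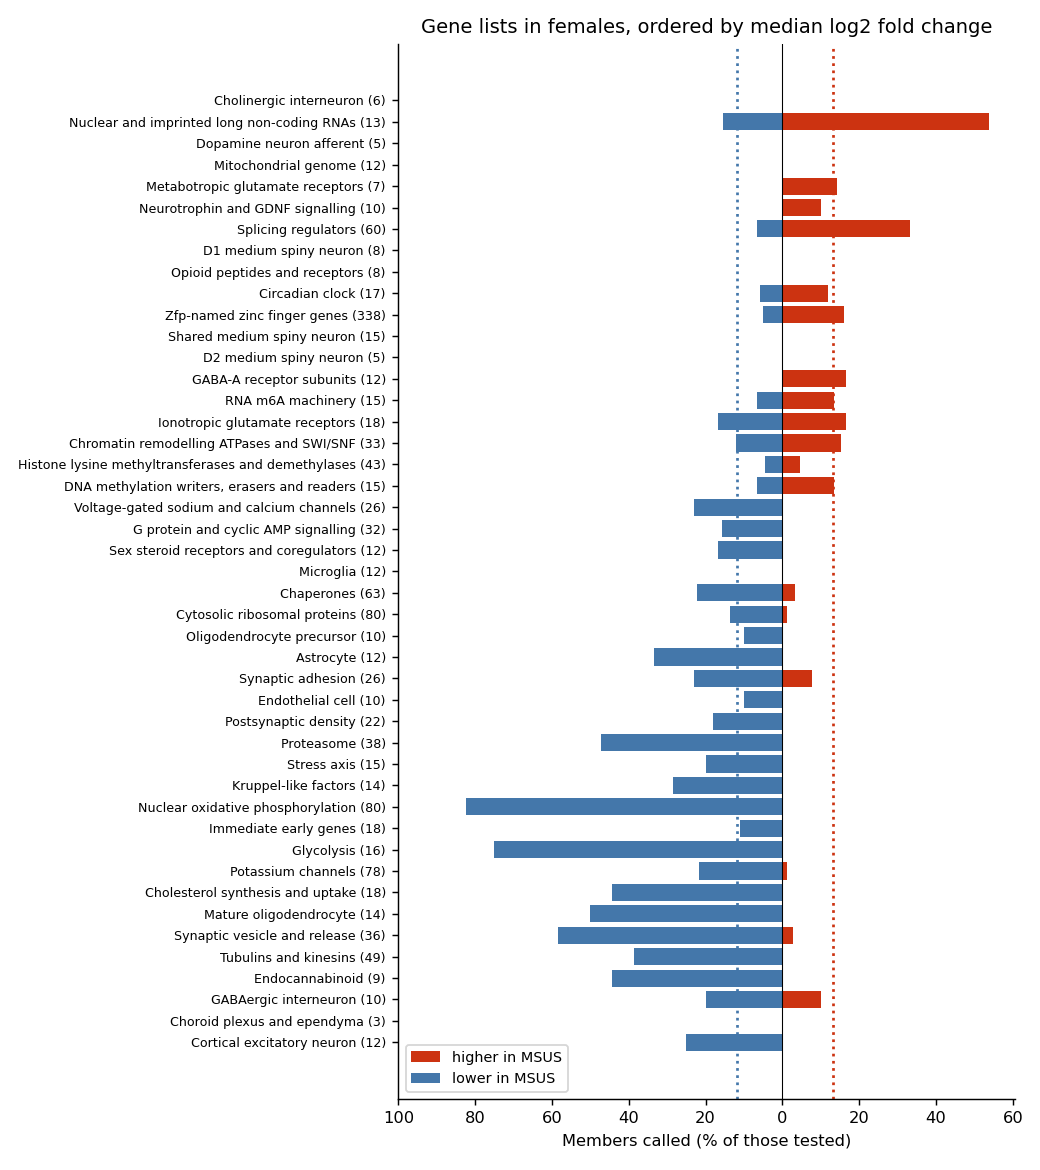
Share of tested members called higher (right, red) or lower (left, blue) in MSUS females for each gene list, ordered by median log2 fold change with the number tested in parentheses. Dotted lines mark the share of all genes called, 13.1% higher and 11.9% lower. Nuclear oxidative phosphorylation has 66 of 80 members lower, and the list of nuclear and imprinted long non-coding RNAs has 7 of 13 higher.

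The genes that rose were of a different kind. Splicing regulators bind pre-mRNA and choose its exons. Of 60 tested, 20 were higher and 4 lower in MSUS females, beside 13.1% higher and 11.9% lower among all genes. Their median was 0.07, or 0.02 with offsets for length and GC content. Between 14 (without MSUS female 5) and 22 were higher with 1 library left out. Tra2a, an activator of exon inclusion, lay between 73.7 and 85.5 CPM in Con (median 77.1) against 89.0 to 101 in MSUS females (median 98.2). The groups did not overlap, and the log2 change was 0.31 ± 0.04 (adjusted p = 0.00241, edgeR) beside a male slope of 0.29 ± 0.05. Srsf7, an SR protein, changed by 0.26 ± 0.05 with a slope of 0.32 ± 0.06. Those that fell included Nova2, the neuronal splicing factor, at -0.14 ± 0.04. Among other RNA-handling genes, Rnpc3, a protein of the minor spliceosome, had a log2 change of 0.50 ± 0.10 (adjusted p = 0.00857, edgeR). Zcchc7, a zinc knuckle protein of nuclear RNA surveillance, had one of 0.36 ± 0.04, and Paxbp1 one of 0.29 ± 0.04 (adjusted p = 0.00126 for both, edgeR). The change of Zcchc7 was -0.03 with offsets for length and GC content. Arf5, a small GTPase of Golgi traffic, had a lower p than both, at -0.22 ± 0.03 (adjusted p = 0.00111, edgeR).

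Long non-coding RNAs that stay in the nucleus or are imprinted, meaning expressed from 1 parental allele, were mostly higher. Of 13 listed, 7 were higher and 2 lower, beside 13.1% higher and 11.9% lower among all genes. The median was 0.31 on the log2 scale, and their sum of 17097 to 19968 CPM in Con did not overlap with 21050 to 23893 CPM in MSUS females. With offsets for length and GC content the median was 0.01 and 6 were called. Meg3, the maternally expressed RNA of the Dlk1 cluster, lay between 2743 and 3513 CPM in Con (median 2966) against 3636 to 4484 in MSUS females (median 4355). The log2 change was 0.47 ± 0.07 (adjusted p = 0.00304, edgeR) without overlap, with 0.02 ± 0.12 for MSUS in males and a male slope of 0.28 ± 0.11. Kcnq1ot1, the RNA that silences neighbours in its imprinted cluster, changed by 0.45 ± 0.10 (adjusted p = 0.0130, edgeR). Its male slope was 0.52 ± 0.06, and its female change became -0.12 ± 0.10 with the share as a term. Peg13 (-0.24 ± 0.06) and Pantr1 (-0.15 ± 0.05) were the lower ones, with male slopes of -0.29 ± 0.05 and -0.0005 ± 0.04. The separated long non-coding RNAs with the largest rises included Gm32647 (1.13 ± 0.19), Gm45159 (0.88 ± 0.12) and C130073E24Rik (0.82 ± 0.13), with male slopes of 1.02, 0.97 and 0.90. In the other direction, Gm45606 was the only long non-coding RNA of at least 100 mean counts that was called lower without overlap (-0.47 ± 0.11).

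Among the protein-coding genes with the largest separated rises were 2 meiotic genes measured here at low level, the helicase Hfm1 (0.57 ± 0.10) and the synaptonemal complex gene Sycp2 (0.54 ± 0.09), and the zinc finger gene Zfp950, which went from 46.2 to 64.2 CPM in Con to 74.6 to 85.9 CPM in MSUS females (0.47 ± 0.07, adjusted p = 0.00281, edgeR). Of 338 genes named Zfp, 54 were higher and 17 lower, to be read beside 13.1% higher and 11.9% lower among all genes. Their median was 0.04, or -0.00 with offsets for length and GC content, and 33 were higher without MSUS female 3. The largest separated falls included Ppp1r3g, a glycogen-targeting subunit of protein phosphatase (-0.49 ± 0.11), Slc41a3, a magnesium carrier (-0.48 ± 0.12), the silent potassium channel subunit Kcns1 (-0.53 ± 0.15) and the G protein subunit Gng13 (-0.45 ± 0.10).

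Counts among receptors and channels were small and are to be read beside the 13.1% higher and 11.9% lower of all genes. GABA-A receptors are the chloride channels of fast inhibition, and 2 of 12 subunits were higher and none lower. Gabra2, which encodes the α2 subunit, lay between 63.3 and 87.4 CPM in Con (median 81.2) against 92.3 to 103 in MSUS females (median 97.2). Its log2 change was 0.31 ± 0.06 (adjusted p = 0.00987, edgeR) without overlap, and its male slope was 0.37 ± 0.05. Of 18 ionotropic glutamate receptor genes 3 were higher and 3 lower, among them the kainate receptor Grik2 (0.32 ± 0.09) and the NMDA receptor subunit Grin2c (-0.19 ± 0.05), with 1 higher without MSUS female 3 and 5 without Con female 3. The presynaptic glutamate receptor Grm7 was higher (0.24 ± 0.07). Of 26 voltage-gated sodium and calcium channel genes 6 were lower, including the calcium channel subunit Cacnb3 (-0.38 ± 0.09), and of 78 potassium channel genes 17 were lower and 1 higher. Those counts of lower genes were 3 and 8 without MSUS female 2, and 33 potassium channel genes were lower without MSUS female 1. In the adhesion list of 26, Csmd3 (0.29 ± 0.07) was 1 of 2 higher and Ntm, a neurite adhesion protein, 1 of 6 lower (-0.37 ± 0.11). All 9 endocannabinoid genes had fold changes below 0 and 4 were called (2 without MSUS female 4 and 6 without Con female 4), among them Dagla, which makes 2-arachidonoylglycerol (-0.23 ± 0.05), and Abhd12, which breaks it down (-0.21 ± 0.05).

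The lists of stress, steroid and activity genes were short, and their small counts were not tested against the 13.1% higher and 11.9% lower of all genes. Of 15 genes of the stress axis 3 were lower (1 without Con female 5; median -0.11), including Crhr1, the receptor of corticotropin-releasing hormone (-0.23 ± 0.08, adjusted p = 0.0668, edgeR), which failed the threshold in 6 of 12 fits that left out 1 library, namely Con female 2, 5 or 6 or MSUS female 2, 4 or 5. Of 12 sex steroid receptors and coregulators 2 were lower, including Srd5a1, which converts testosterone and progesterone to their reduced forms (-0.41 ± 0.10). Of 18 immediate early genes, which respond to neuronal activity, Jun (-0.42 ± 0.11) and Jund (-0.18 ± 0.05) were lower and none was higher, with a median of -0.18 over the list. Of 17 clock genes 2 were higher, including the repressor Bhlhe41 (0.29 ± 0.09), and 1 was lower. Klf13 (-0.29 ± 0.08) was 1 of 4 lower among 14 Kruppel-like factors, of which 2 were lower without Con female 2 and 7 without MSUS female 1. Of 10 neurotrophin and GDNF signalling genes 1 was higher, and of 32 G protein and cyclic AMP signalling genes 5 were lower (3 without Con female 2). None of 5 markers of dopamine afferents and 3 of choroid plexus and ependyma was called by edgeR.

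Chromatin and RNA modification genes had shares called near or below the background of 25.1%. Among 43 histone lysine methyltransferases and demethylases 4 were called, among them Setd4 (0.26 ± 0.06), and among 33 chromatin remodelling genes 9 were, including Srcap (0.21 ± 0.05) and Smarcc2 (-0.16 ± 0.05). Of 15 DNA methylation genes 3 were called, including Uhrf2 (0.13 ± 0.03), a reader of modified cytosine, and Mbd3 (-0.11 ± 0.03). Of 15 genes for the m6A mark on RNA 3 were called, among them the nuclear reader Ythdc1 (0.21 ± 0.05) and the writer component Rbm15b (-0.17 ± 0.03). With offsets for length and GC content the changes of Ythdc1 and Mbd3 were -0.06 and 0.02. Of 63 chaperone genes 14 were lower (10 without MSUS female 2 and 20 without MSUS female 1), including Hspa2 (-0.28 ± 0.08), and 2 higher, including Dnajc1 (0.18 ± 0.04).

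The direction of change followed the kind of transcript. Of 14949 protein-coding genes 1043 were higher and 2388 lower, where 13.1% of all genes were higher and 11.9% lower. Of 1677 TEC models, transcribed stretches whose status the annotation leaves to be tested, 887 were higher and 9 lower, with a median log2 change of 0.41. Of 241 sense-intronic RNAs, which lie inside introns of other genes, 108 were higher and 1 lower (median 0.39). Of 842 lincRNAs 151 were higher and 15 lower, and of 741 processed pseudogenes 144 were higher and 6 lower. In males the medians for MSUS were -0.04 for TEC models and -0.05 for sense-intronic RNAs, and the median male slopes for the female gap were 0.39 for both. Reads of an intron and of a model inside it cannot be told apart in these counts.

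Among protein-coding genes the direction followed base composition and length. In the quintile with the lowest exonic GC content (31.0% to 44.0%), 523 of 2989 genes were higher and 82 lower. In the quintile with the highest (55.7% to 76.3%), 52 were higher and 900 lower, which is 30.1%. In the quintile with the shortest exonic sequence 93 of 2990 genes were higher and 681 lower, and in the longest quintile 424 were higher and 239 lower. The quintile of genes with the shortest span had 719 of 2990 lower, against 301 in the longest quintile. With offsets for length and GC content, fitted over genes of all biotypes together, 500 TEC models were higher and 14 lower, and the direction turned in other classes. The lowest GC quintile then had 87 genes higher and 643 lower, the highest 184 higher and 187 lower, and the quintile with the longest exonic sequence 164 higher and 426 lower. These offsets therefore did not level GC content among protein-coding genes. The median with them was -0.07 in the lowest GC quintile and -0.01 in the highest. The median male slope for the female gap ran from 0.06 in the lowest GC quintile to -0.11 in the highest, beside 0.04 and -0.11 for the female change.

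**Figure D4:**
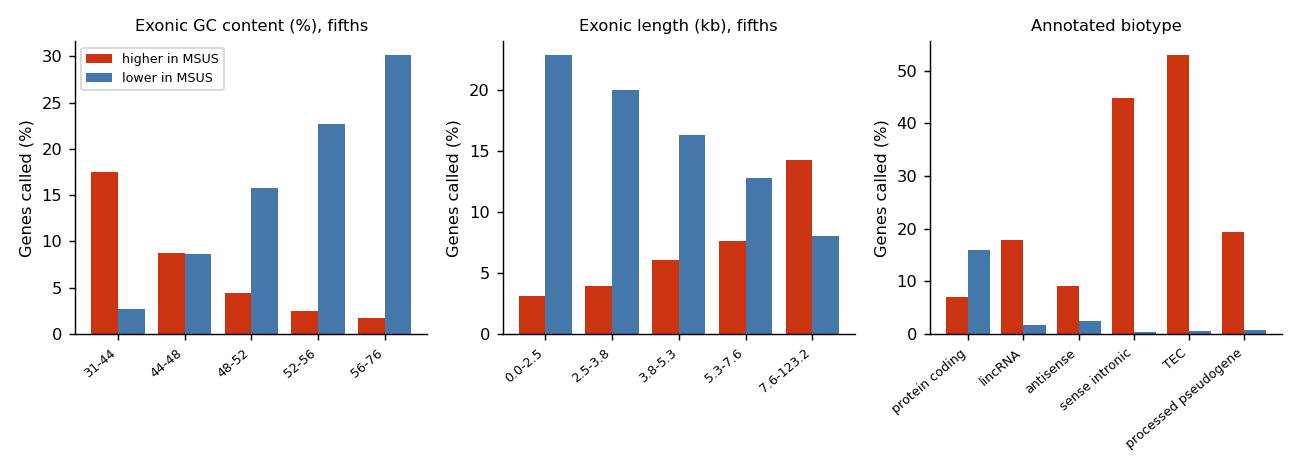
Percent of genes called higher (red) or lower (blue) in MSUS females. The first panel takes protein-coding genes by quintiles of exonic GC content, the second by quintiles of exonic length in kilobases, and the third takes genes by annotated biotype. Calls lower rise from 2.74% to 30.1% over the GC quintiles, and 52.9% of TEC models are called higher.

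Gene by gene, the female change lay close to the slope on the unassigned share in males. Over 20381 genes fitted in both, Pearson's r was 0.745 and Spearman's rho 0.732. This is a correlation across genes, which are not independent replicates and share length, base composition and cell type, and the fits share no animal. Of 5144 genes called in females and fitted in males, 5012 had a male slope of the same sign (97.4%), against 80.4% of all genes. Both calls were made for 3553 genes, which is 69.1% of the female calls and 54.4% of the male slope calls, and 3551 of these had the same sign. The median size of the female change among called genes was 0.27 on the log2 scale, and that of the male slope for the same gap was 0.25.

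**Figure D5:**
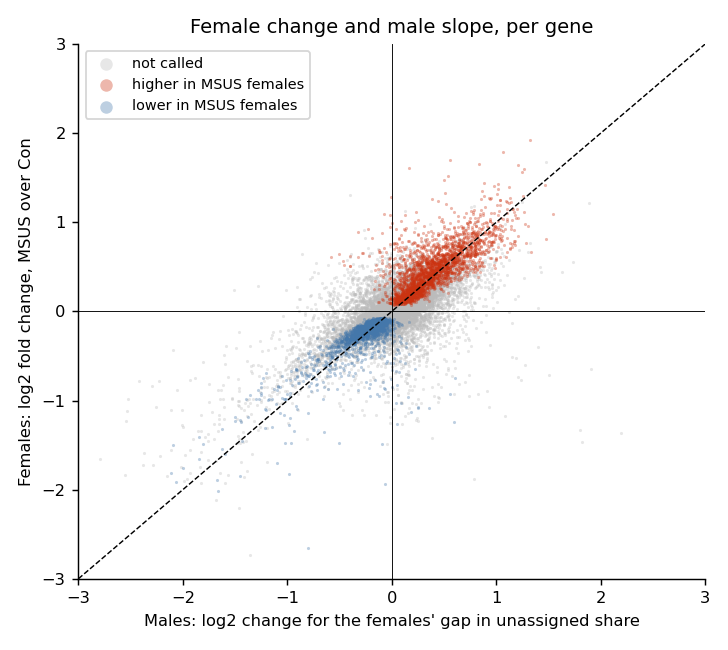
Each point is 1 of 20381 genes. The x axis is the log2 change per 7.25 percentage points of unassigned share among 12 males, and the y axis is the log2 fold change of MSUS over Con females. The dashed line marks equal values, and called genes, red for higher and blue for lower, lie along it.

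The comparison of MSUS with Con in males gave no call by edgeR's test, 0% of 20691 genes, with 191 at an unadjusted p under 0.05 and none by DESeq2 (304 at an unadjusted p under 0.05). Whether the female change differed from the male one was tested by the group-by-sex interaction over all 24 animals. None of 21500 genes passed, 0%, with 4031 at an unadjusted p under 0.05 (18.7%) and a smallest adjusted p of 0.2 in edgeR's test. DESeq2 called 408 genes, and leaving out MSUS male 1, which had the highest unassigned share of the 24 (44.7%), gave 3031. With the unassigned share as a term there were no calls by edgeR, and 343 genes lay below 0.05 before adjustment.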

How the data were processed

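RNA was sequenced from the NAc of 24 mice, 1 library per animal. Per the labels, libraries were made after ribosomal RNA depletion and aligned with STAR 2.6.1b on mm10. The authors deposited read pair counts per gene, without normalization and in 3 columns for the unstranded, antisense and sense settings, and the sense column was used. Rows for unmapped, multiply mapped, unassigned and ambiguous pairs were left out of library sizes and tests. Of 52636 gene identifiers 52489 were matched to GENCODE M21 on GRCm38.

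Genes were filtered with edgeR 4.0.16 (filterByExpr, minimum count 10), scaled by TMM and tested with its robust quasi-likelihood test in R 4.3.3, with Benjamini-Hochberg adjustment over all genes and a threshold of 0.10. The SE is the log2 fold change divided by the square root of F. CPM used TMM factors over the 24 libraries. DESeq2 1.42.0 was an alternative. Library measures were compared by exact permutation in scipy 1.17.1. The procedure was tested on simulated counts with set fold changes. These held no difference in unassigned share or tissue between groups, so that test cannot speak to the part of either. No library was found to be a copy of another. P-values measure the spread between animals, which may be littermates.

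The genes, 45 lists and tests were chosen with earlier results of these data known. Genes named were, among called genes of at least 100 mean counts without overlap, those with the largest rises and falls (10 protein-coding and 5 long non-coding each way), the 5 protein-coding genes with the lowest p, up to 2 called genes per list and direction (the 2 most abundant where none was called), the 3 with the lowest p beside the unassigned share and the 5 with the lowest interaction p. Of these, chosen after values were seen, the text gives genes called in each fit without 1 library, together with Stx1a, Crhr1, Fezf2, Emx1, Sst, Pvalb, Lhx6 and Drd1. Mag, Ndufa5 and Ndufa11 fall outside the rule and were also chosen after their values were seen. Xist and Ddx3y were named as the check of the sex labels.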

Additional observations from a re-analysis of the deposited data

Results flagged for a closer look

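Among 138 sets of 6 female values, for the genes named and 4 library measures, 14 held 1 library far from the other 5, where chance gives about 1 in 20. MSUS female 1 was such a library for Hk1 (262 CPM against 210.1 to 223), Bhlhe41 (69.0 against 80.7 to 85.1), Stx1a (58.1 against 25.7 to 36.1), Rpl22 (48.7 against 45.0 to 45.9) and Emx1 (2.24 against 0.0209 to 0.817). Con female 2 was one for Nrgn (588 CPM against 297 to 385), Dagla (121 against 99.8 to 105), Zfp950 (46.2 against 57.9 to 64.2), Fezf2 (17.9 against 1.37 to 7.07) and the mitochondrial share (1.95% against 2.75% to 3.07%). The others were Uhrf2 (67.1 CPM against 64.5 to 65.1) and Srd5a1 (6.16 against 4.47 to 4.95) in MSUS female 2, Dnajc1 (41.0 against 44.0 to 45.3) in MSUS female 4 and Srsf7 (83.3 against 68.6 to 73.9) in MSUS female 5.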

How the results depend on the processing

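The count of 5156 genes in females stayed within 1.5 times under DESeq2 (5746), its size factors (5112), at least 10 counts in every library (4969), no filter (3667), counts without regard to strand (6823), a term for library set (5170), the fit of all 24 animals (4087) and the replicate block (3800). It was 3126 at an adjusted p under 0.05, 3286 with the cortical marker level as a covariate, 3294 with offsets for length and GC content, 1636 with these and the replicate block, 23 within libraries 1 to 12, 0 within libraries 13 to 24, and 0 with the unassigned share as a covariate, alone, with the replicate block or over all 24 animals. Without 1 library it ranged from 3102 to 5737, with 3358 without MSUS female 2. The labels do not say whether replicate numbers pair the animals. Same-numbered Con and MSUS females had correlations of their deviations between -0.365 and 0.387. Of 6 Con females 1 correlated best with its own number. These 6 values show no plain pairing by number but cannot exclude one. The interaction gave 408 calls under DESeq2 and from 0 to 3031 without 1 library. The male slope gave 7093 calls without the group term.

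Leaving out 1 library, the mean difference between MSUS and Con females ranged from 6.46 to 7.97 points for the unassigned share, from -0.109 to -0.0886 for the ambiguous share, from 0.105 to 0.138 for the antisense share and from 0.206 to 0.429 for the mitochondrial share, which passed 0.05 after adjustment without Con female 1 (0.429) or 5 (0.427) or MSUS female 2 (0.413) or 4 (0.404). Relative to assigned counts the unassigned difference was 18.4 points and the ambiguous one -0.00088 points. With the unassigned share as a covariate 0 TEC models, 0 genes of the lowest and 0 of the highest GC quintile and 0 of the quintile with the shortest span were called, and with offsets 500, 87, 187 and 364.

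Of the 65 genes named, 57 of 64 that were called kept the call in each fit without 1 library. That share follows from the choice of genes, since keeping the call was a ground for naming a gene here. Over all 5156 called genes, 2838 kept it. Signs of the named genes reversed as follows, on the log2 scale and with no call in any case. With the unassigned share as a covariate, Kcnq1ot1 was -0.119. With that share over all 24 animals, Drd1 was -0.0897, Kcnq1ot1 -0.0886, Abhd12 0.0149, Grm7 -0.0125, Sst 0.111, Uhrf2 -0.0227, Ndufa11 0.0153, Psmb5 0.00344, C130073E24Rik -0.00181 and Slc41a3 0.0378. With offsets, Ythdc1 was -0.0646, Zcchc7 -0.0335 and Mbd3 0.0193, and with offsets and the replicate block -0.0627, -0.0329 and 0.0197. Drd1 was -0.213 with the cortical covariate and -0.00708 without Con female 3. With the replicate block and the unassigned share, Mbp was 0.212, Nrgn 0.0833, Smarcc2 0.0119, Peg13 0.0595, Drd1 -0.683, Hk1 0.0991, Klf13 0.199, Kcnq1ot1 -0.125, Grik2 -0.224, Abhd12 0.0434, Csmd3 -0.103, Mag 0.135, Grm7 -0.112, Sst 0.434, Jund 0.0448, Rbm15b 0.0225, Gm45159 -0.119, Stx1a 0.233, Rpl22 0.00781, Srcap -0.0867, Hspa2 0.0458, Psmb5 0.0544, Kcns1 0.0943 and Fezf2 0.771. The cause of these shifts was not tested.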

Other observations

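The share of protein-coding genes called lower, 2388 of 14949 in all, ran from 9.0% on the X chromosome to 25.3% on chromosome 19, with 21.8% on chromosome 15 and 20.9% on chromosome 11. Of 506 genes on chromosome 19, 128 were lower in MSUS females and 25 higher, which became 62 and 23 with offsets for length and GC content. On the X chromosome 61 of 522 were higher and 47 lower, which turned to 25 higher and 77 lower with these offsets. Xist rose by 0.22 ± 0.06 on the log2 scale (adjusted p = 0.0386, edgeR). Its groups overlapped, at 1089 to 1377 CPM in Con and 1339 to 1557 CPM in MSUS females. Like every other gene, it was not called with the unassigned share as a term.

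GGGCGG, the GC box searched on both strands, was found for 63.0% of genes called lower, 52.8% of those called higher and 57.9% of all protein-coding genes with a promoter in the RefSeq table, CCNCACCC for 19.8%, 14.5% and 18.4%, and TATAAA for 5.21%, 6.37% and 6.54%, in the 250 bases before the start. These shares were not tested. Of 12 cholesterol genes with a promoter all 12 held GGGCGG, as did 20 of 63 nuclear oxidative phosphorylation genes.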
